A study of Homo sapiens with 6 samples.

Results

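Hep3B is a human liver cancer line, and the libraries came from Hep3B cells in which the endogenous PD-L1 gene, CD274, had been knocked out. The cells carried either an empty lentiviral vector (vector, 3 libraries) or nPD-L1, a PD-L1 whose LCL motif had been mutated to ACA so that the protein gathers in the nucleus (labelled nPD-L1, 3 libraries), under a CMV promoter with puromycin selection. Each group was thus 1 stable line. The libraries of a group are described by the study as independent samples for sequencing, but whether these were separate cultures is not stated, so the p-values measure the spread between these libraries, which may be technical. In the resulting RNA sequencing table, 10 genes of the MYC and MAX network were followed, namely MYC, MYCN, MYCL, MAX, MXD1, MXD3, MXD4, MXI1, MNT and MLX. They were selected by gene symbol from 27009 genes, and all 10 were found, of which 9 reached the level needed for testing.

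MYC, MYCN and MYCL are transcription factors that bind DNA as dimers with MAX at the E-box CACGTG and raise genes of ribosome production, metabolism and cell division. The MXD proteins, MXI1 and MNT compete for MAX and for the same sites, and bring the SIN3 corepressor with histone deacetylases. MLX is a MAX-like partner that also dimerizes with the glucose-sensing factors MLXIP and MLXIPL and with some MXD proteins and MNT. In liver, MYC is a well-known oncogene of hepatocellular carcinoma.

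The DNA side of this network is shown first, because the members themselves bind it. In the RefSeq promoter windows of GRCh38.p14, which reach from 250 bases before to 50 bases after a gene start, CACGTG (a palindrome, so both strands read alike) occurred for 3 of the 9 members with a window, MLX, MNT and MXD4, and in 8.77% of the 27305 genes with a window (2396 genes). MYC had no window in that table. The 250 bases before the start of these 3 genes follow with the E-box in capitals, and that of MYCL, which had the highest fold change of the members, stands beside them without a match.
MLX (chr17:42566850-42567099, plus strand): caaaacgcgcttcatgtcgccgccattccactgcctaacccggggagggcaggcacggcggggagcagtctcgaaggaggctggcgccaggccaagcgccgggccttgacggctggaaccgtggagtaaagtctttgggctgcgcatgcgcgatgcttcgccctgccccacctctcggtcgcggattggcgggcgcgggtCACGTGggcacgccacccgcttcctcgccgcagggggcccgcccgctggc
MNT (chr17:2401061-2401310, minus strand): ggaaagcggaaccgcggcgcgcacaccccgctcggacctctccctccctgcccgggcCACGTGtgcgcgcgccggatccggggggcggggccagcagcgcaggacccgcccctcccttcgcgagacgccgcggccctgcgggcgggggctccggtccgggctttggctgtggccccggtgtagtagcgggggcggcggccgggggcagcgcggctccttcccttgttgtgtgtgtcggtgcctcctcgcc
MXD4 (chr4:2262110-2262359, minus strand): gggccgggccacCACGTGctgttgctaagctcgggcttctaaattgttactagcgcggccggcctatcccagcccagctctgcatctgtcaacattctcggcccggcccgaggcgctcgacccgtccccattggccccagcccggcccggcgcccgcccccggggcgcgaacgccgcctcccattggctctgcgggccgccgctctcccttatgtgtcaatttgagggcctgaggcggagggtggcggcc
MYCL (chr1:39901918-39902167, minus strand): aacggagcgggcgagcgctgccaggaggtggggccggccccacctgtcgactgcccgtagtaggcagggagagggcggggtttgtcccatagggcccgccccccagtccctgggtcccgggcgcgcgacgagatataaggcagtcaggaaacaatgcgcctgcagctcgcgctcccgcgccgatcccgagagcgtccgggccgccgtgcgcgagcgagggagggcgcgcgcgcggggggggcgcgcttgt
The E-box began 50 bases before the start of MLX, 193 bases before that of MNT and 238 bases before that of MXD4. The 4 stretches were rich in G and C, from 70.4% in MXD4 to 78.0% in MNT. The starts are those of RefSeq and differ from the ends of the deposited gene spans. The MYCL stretch lies wholly within its deposited span, which runs to 39902256, and those of the other 3 genes lie partly within theirs. A match is a description of letters only, and its absence from a window says nothing of binding elsewhere.

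The deposited values were gene-level reads scaled by a size factor for each library (scaled reads), and they summed to between 18082164 and 19682128 per library. The reads behind them were recovered in 4 libraries, at 17427519 to 22253295 per library. The targeted gene did not mark the groups, since CD274 stood at 28.3, 38.4 and 47.8 scaled reads with vector and at 16.8, 19.2 and 30.9 in nPD-L1-labelled libraries (log2 fold change −0.76 with a standard error, SE, of 0.34, limma adjusted p = 0.339). Libraries with the nPD-L1 label thus did not show more CD274 than the vector libraries, so the groups are named by their labels and each direction below rests on them. Of the 8 liver markers, 6 were in the table, and ALB, APOA1, APOB and TTR did not exceed 2.89 scaled reads in any library, while SERPINA1 and HNF4A did not exceed 51.6. The liver label was therefore not borne out by these markers, and the summed level of the 6 was 19.7 to 64.6 scaled reads with vector and 56.9 to 77.9 in nPD-L1-labelled libraries. HNF4A, though low, was higher in nPD-L1-labelled libraries without overlap (log2 fold change 1.91, SE 0.42, limma adjusted p = 0.0232). SERPINA1 did not pass the test (0.22, limma adjusted p = 0.886). Leukocyte markers (3 in the table) summed to at most 5.65 and PECAM1, the endothelial marker in the table, to at most 3.03. Of the fibroblast markers PDGFRA, DCN and COL1A1, the sum was 54.0 to 92.9 with vector and 454 to 491 in nPD-L1-labelled libraries, nearly all of it COL1A1. COL1A1 passed the test (log2 fold change 2.84, SE 0.19, limma adjusted p = 7.99e-06), and PDGFRA and DCN were too low to test. The part of these markers in the results was not tested. In bulk RNA, fewer cells of a type and less RNA per cell cannot be told apart.

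MYC was by far the most abundant transcript of the network and did not differ detectably between the groups. No member passed the test in either direction: 0 of 9 had an adjusted p under 0.05 from limma, against 4.96% of the 15076 genes tested (4.04% higher and 0.922% lower in nPD-L1-labelled libraries). At an unadjusted p under 0.05 there were 2 of 9, MYCL (higher in nPD-L1-labelled libraries) and MXD3 (lower), against 14.2% of all genes tested (9.53% higher and 4.71% lower). edgeR and DESeq2 on the 4 libraries with recovered reads called 0 members, and 0 also at an unadjusted p. Those fits lacked vector replicate 1 and replicate 2 labelled nPD-L1. For MYCL these were the lowest vector library and the highest one labelled nPD-L1 (12.1 and 58.7 scaled reads). Its log2 fold change was 0.87 in both tools, and with so few libraries 0 calls do not show an absence of change. MYCL and MXD3 were the only tested members without overlap between the groups, 22.2% of the members and 20.6% of all genes tested. The log2 fold changes ran from −0.49 to 1.29 with a median of −0.01, and that of all genes tested was −0.02.

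**Figure D1:**
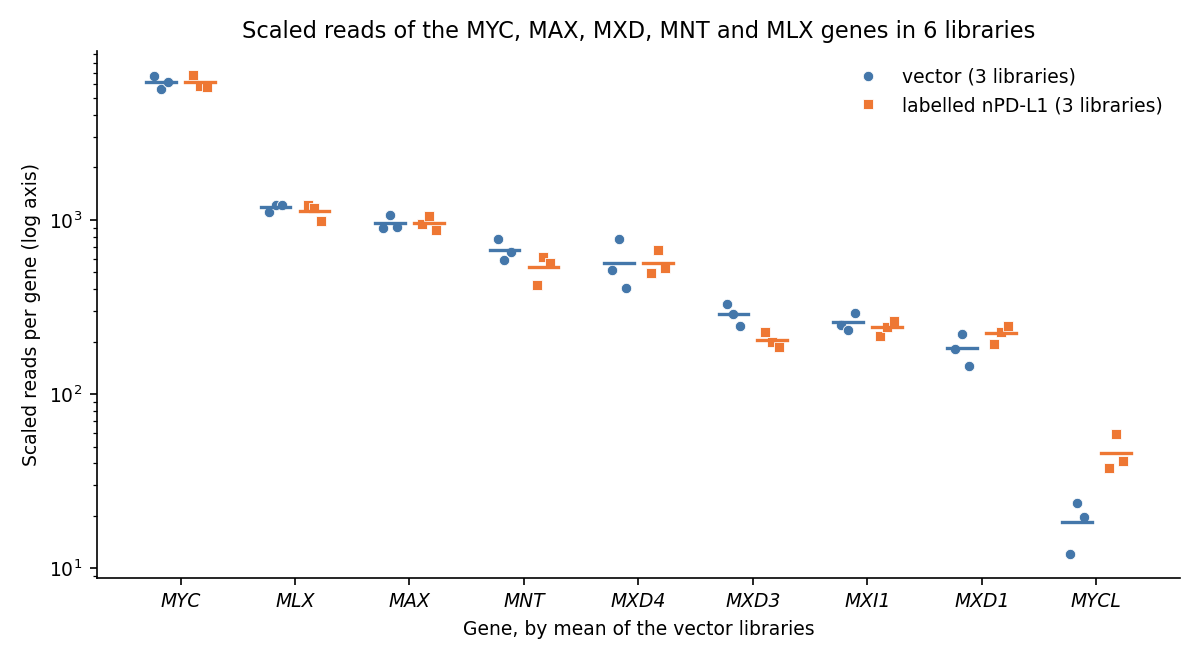
Scaled reads on a log axis for the 9 tested members, with blue circles for the 3 vector libraries, orange squares for the 3 libraries labelled nPD-L1 and a bar at each group mean. MYC lies between 5655 and 6811 in all 6 libraries, and the groups are apart in MYCL and MXD3 alone.

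MYC (ENSG00000136997) lies on the plus strand of chromosome 8 of the hg38 build, from 127735434 to 127741434. It had 6720.2, 5655 and 6212 scaled reads in vector replicates 1, 2 and 3, and 6811, 5903 and 5783 in replicates 1, 2 and 3 labelled nPD-L1. The highest library of each group was replicate 1 and the ranges overlapped throughout. The means were 6196 ± 533 and 6166 ± 562 (SD, n = 3 each). The log2 fold change was −0.01 (SE 0.11, limma adjusted p = 0.984), and its 95% interval, not adjusted for the number of genes, was 0.840-fold to 1.18-fold. A change of MYC mRNA within that interval could not be resolved with 3 libraries a group.

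The other two MYC genes were scarce. MYCN (ENSG00000134323), a paralog of neural and embryonic tissues, was not tested. Its values were 1.01, 0 and 1.04 scaled reads with vector and 3.36, 1.01 and 0 in nPD-L1-labelled libraries, and the recovered reads were 0 and 1 in vector replicates 2 and 3 and 4 and 0 in replicates 1 and 3 labelled nPD-L1. Both groups were near the limit of detection and no fold is given. MYCL (ENSG00000116990), the third family gene, lies on the minus strand of chromosome 1 from 39895426 to 39902256. It had 12.1, 23.7 and 19.7 scaled reads in vector replicates 1, 2 and 3 and 37.8, 58.7 and 41.5 in the replicates labelled nPD-L1. All 3 libraries labelled nPD-L1 were above all 3 vector libraries. The log2 fold change was 1.29 on the log2(scaled reads + 1) scale, which understates the change of a gene this low (SE 0.34, 95% interval 1.45-fold to 4.11-fold), with an adjusted p of 0.0599 from limma.

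That value lay close to the threshold and moved across it in 5 of 19 alternative fits (those that kept the adjusted p threshold), with adjusted p from 0.0163 to 0.9998 over all of them. MYCL was called without vector replicate 2 (limma adjusted p = 0.0163) and in none of the other 5 fits that left out a library, where the adjusted p was up to 0.290. Even in nPD-L1-labelled libraries, MYCL remained a small part of the family: per kilobase of gene length, MYC made up 99.4% to 99.6% of the summed MYC, MYCN and MYCL level there, and 99.8% to 99.9% with vector.

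MAX (ENSG00000125952; chromosome 14, 65006174 to 65102695, minus strand), the shared partner of all MYC and MXD proteins, was as steady as MYC. Its scaled reads were 900.3, 1073 and 905 with vector and 949.6, 1053 and 870.1 in nPD-L1-labelled libraries. Replicate 2 was the highest in both groups. The log2 fold change was −0.00 (−0.0024 before rounding; SE 0.12, limma adjusted p = 0.994), with a 95% interval of 0.835-fold to 1.19-fold. MLX (ENSG00000108788; chromosome 17, 42567068 to 42573239, plus strand) had 1105, 1217 and 1219 scaled reads with vector and 1216, 1174 and 986 in nPD-L1-labelled libraries. The groups overlapped, and the interval ran from 0.801-fold to 1.13-fold around a log2 fold change of −0.07 (limma adjusted p = 0.818). On the opposite strand, FNTB overlaps the span of MAX by 56479 bases and PSMC3IP that of MLX by 925 bases. They carried means of 407 and 173 scaled reads. Their reads may not have been separated from those of MAX and MLX.

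Among the 5 repressive partners, MXD3, MNT and MXI1 were lower and MXD1 and MXD4 higher by point estimate, and none passed the adjusted test. The sign turned in 6 of the 19 alternative fits for MXD4 and in 1 for MXI1. MXD3 (ENSG00000213347; chromosome 5, 177301461 to 177312757, minus strand), an MXD protein known from dividing cells, had 331, 288 and 245 scaled reads in vector replicates 1, 2 and 3 and 229, 198 and 186 in the replicates labelled nPD-L1. Every library labelled nPD-L1 was below every vector library. The log2 fold change was −0.49 (SE 0.16, 95% interval 0.560-fold to 0.908-fold, unadjusted p = 0.0107 and limma adjusted p = 0.141). PRELID1, on the opposite strand, lies wholly within the span of MXD3 (3186 bases) and carried a mean of 3227 scaled reads, and RAB24 shares 2284 bases with MXD3. The strand setting of the counting is not given in the sources used here, so reads of MXD3 and PRELID1 may not have been separated. PRELID1 itself had a log2 fold change of −0.26 (limma adjusted p = 0.457).

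MNT (ENSG00000070444; chromosome 17, 2384060 to 2401118, minus strand), the broadly expressed MAX-dependent repressor, had 776, 589.5 and 658 scaled reads with vector and 424, 609 and 569 in nPD-L1-labelled libraries. Replicate 1 labelled nPD-L1 was the lowest library, and vector replicate 2 fell inside the range of the other group. The log2 fold change was −0.34 (SE 0.16, limma adjusted p = 0.363), with an interval from −0.70 to 0.01 on the log2 scale. MXD1 (ENSG00000059728; chromosome 2, 69897688 to 69942945, plus strand), which rises as many cells differentiate, had 183, 220.2 and 145 scaled reads with vector and 195, 229 and 246 in nPD-L1-labelled libraries. The ranges overlapped, and the log2 fold change was 0.30 (SE 0.18, 95% interval 0.932-fold to 1.63-fold, limma adjusted p = 0.533). The deposited span of MXD1 overlaps that of SNRNP27 on the same strand by 7888 bases.

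MXI1 and MXD4 did not differ detectably either. MXI1 (ENSG00000119950; chromosome 10, 110207605 to 110287365, plus strand) had 249, 233 and 293 scaled reads with vector and 217, 244 and 264 in nPD-L1-labelled libraries. Its log2 fold change was −0.09, with an interval from 0.746-fold to 1.18-fold (limma adjusted p = 0.824). MXD4 (ENSG00000123933; chromosome 4, 2247432 to 2262294, minus strand) had the widest spread of the repressors among the vector libraries. Its scaled reads were 514, 776 and 404 in vector replicates 1, 2 and 3 and 497, 669.6 and 531 in the replicates labelled nPD-L1. Replicate 2 was the highest in each group, the coefficient of variation was 33.8% among the vector libraries, and the interval around a log2 fold change of 0.04 was correspondingly wide, from 0.742-fold to 1.43-fold (limma adjusted p = 0.948).

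**Figure D2:**
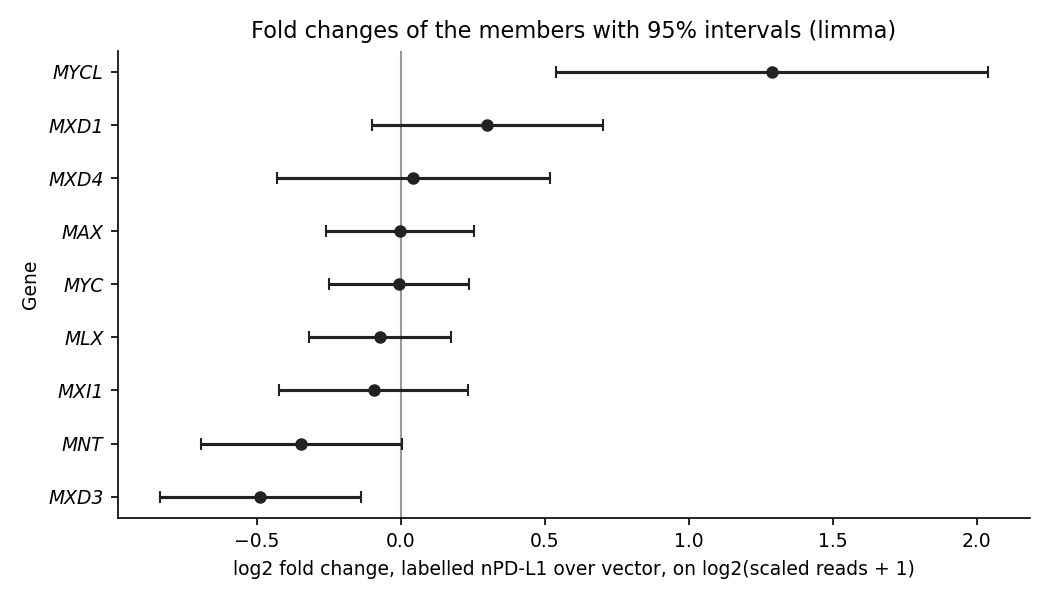
Log2 fold changes of the libraries labelled nPD-L1 over the vector libraries for the 9 tested members (points), on the log2(scaled reads + 1) scale, with unadjusted 95% intervals from limma. The intervals of MYC, MAX and MLX lie within −0.32 to 0.26, that of MYCL runs from 0.54 to 2.04 and that of MXD3 from −0.84 to −0.14.

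The 3 most abundant members were among the steadiest. The coefficient of variation within a group was 8.60% and 9.12% for MYC, 10.2% and 9.57% for MAX, and 5.53% and 10.9% for MLX (vector first, then nPD-L1-labelled). It was 31.8% and 24.2% for MYCL, the scarcest of the tested members. For MXD4 it was 33.8% and 16.2%, although MXD4 had more than 400 scaled reads in every library and MXI1, with fewer, had 12.1% and 9.86%.

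Levels of different genes were compared per kilobase of the deposited gene length, over all 6 libraries. How these lengths were set is not given in the sources used here. They may differ from the lengths of the transcripts present, so ratios and order between genes depend on them. MYC stood at 2060 ± 163 scaled reads per kb (SD, n = 6), above 97.7% of the genes tested. MLX followed at 271 ± 21.8 and MAX at 216 ± 19.2 scaled reads per kb. MYC was 7.61 times MLX, and their ranges were far apart. MLX exceeded MAX within each of the 6 libraries although their ranges overlapped. The repressors came next, with MXD4 at 80.1 ± 19.0 scaled reads per kb, MNT at 69.2 ± 13.2, MXI1 at 54.3 ± 5.74, MXD3 at 47.8 ± 10.7 and MXD1 at 32.0 ± 5.71. Each of these overlapped its neighbour in range. MXD4 was above MNT in 4 of 6 libraries and MXI1 above MXD3 in 4 of 6, so these neighbours did not differ beyond their spread, while MNT was above MXI1 in 6 of 6 and MXD3 above MXD1 in 5 of 6. MYCL, at 6.37 ± 3.36, and MYCN, at 0.411 ± 0.472 scaled reads per kb, closed the order.

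The make-up of the network was set out as sums per kilobase. The 3 MYC genes summed to 2068 ± 177 scaled reads per kb with vector and 2064 ± 187 in nPD-L1-labelled libraries (SD, n = 3). The 5 repressors MXD1, MXD3, MXD4, MXI1 and MNT summed to 309, 319 and 267 with vector (replicates 1 to 3) and to 241, 292 and 273 with the nPD-L1 label. The ranges overlapped, with replicate 1 labelled nPD-L1 the lowest. As a share of the network sum, the MYC genes took 72.2% ± 2.81 with vector and 73.3% ± 2.20 in nPD-L1-labelled libraries, and the repressors 10.4% ± 1.12 and 9.60% ± 1.41. The ratio of MYC genes to repressors was 7.26, 5.93 and 7.78 with vector and 9.45, 6.78 and 7.10 in nPD-L1-labelled libraries, again with overlap. MYC genes exceeded MAX by 9.66 ± 1.67 times with vector and 9.60 ± 1.17 times in nPD-L1-labelled libraries. These are mRNA sums and not protein ratios, and no test was run on them.

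**Figure D3:**
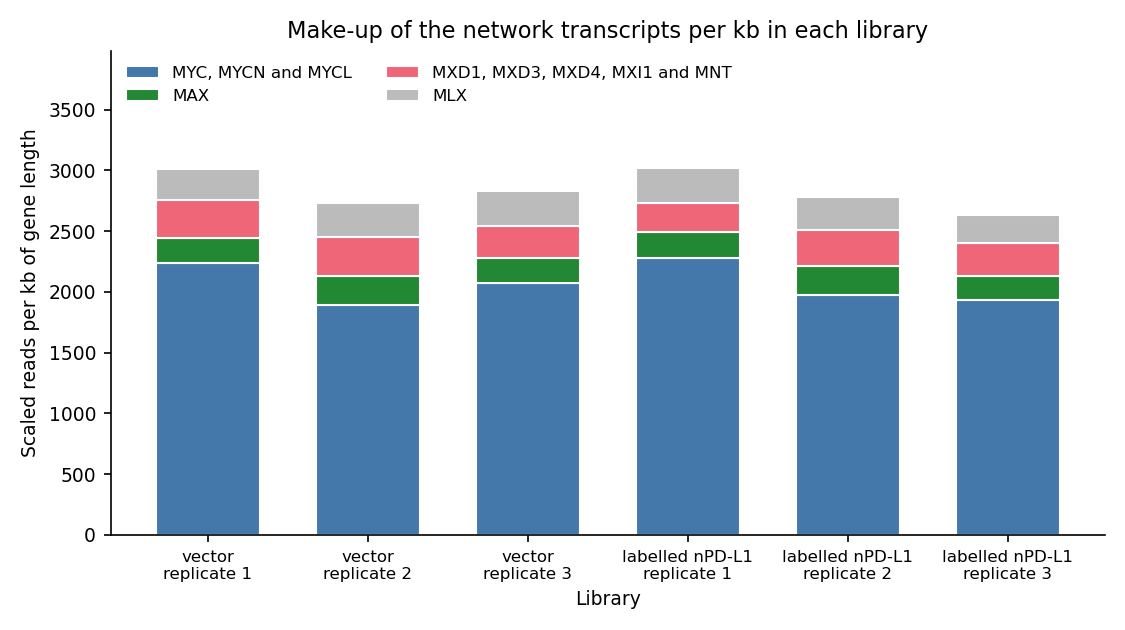
Stacked bars of scaled reads per kb of gene length in each of the 6 libraries, for the MYC genes (blue), MAX (green), the 5 repressors (pink) and MLX (grey). The blue part makes up 69.1% to 75.5% of every bar, and the bars of both groups overlap in height and make-up.

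The genes most like MYC across the libraries, by Pearson r on log2(scaled reads + 1) over the 6 libraries among 10724 other genes with a mean of at least 100, were DNAAF5 (0.987), ZMYM3 (0.985), MYO15B (0.980), EPHB4 (0.976) and BCR (0.975). All were high in vector replicate 1 and replicate 1 labelled nPD-L1 and lowest in vector replicate 2, as MYC was, and their log2 fold changes between groups were from −0.03 to 0.01. The libraries share depth and handling within each point, so r describes library-to-library variation. Among the 7 other members with a mean of at least 100, which leaves out MYCL and MYCN, r to MYC ran from −0.60 (MXD4) to 0.37 (MXD3).

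Of 22 further network genes and MYC cofactors, all were tested, and 1 rose and 1 fell (9.09%, against 4.96% of all genes tested), with a median log2 fold change of 0.02. MLXIP, the glucose-sensing partner of MLX also called MondoA, rose from 1131 ± 167 to 1760 ± 184 scaled reads (SD, n = 3). Its values were 1149.6, 955 and 1288 with vector and 1960, 1597 and 1723 in nPD-L1-labelled libraries, without overlap. The log2 fold change was 0.64 (SE 0.13, limma adjusted p = 0.0148). MLXIPL, the liver paralog known as ChREBP, had 463, 519.5 and 276 against 398, 550.2 and 558 scaled reads and did not pass the test (0.29, limma adjusted p = 0.635), and MGA, a MAX partner that also holds a T-box, had a log2 fold change of 0.12 (limma adjusted p = 0.776). TFAP4, itself a bHLH factor and a MYC target, fell from 429 ± 53.4 to 252 ± 29.0 scaled reads, a log2 fold change of −0.76 (SE 0.15, limma adjusted p = 0.0116). MLXIP was not called without vector replicate 1 or without replicate 1 or 3 labelled nPD-L1 (adjusted p 0.0679 to 0.101 by limma), after removal of the gene length trend (0.0629) or on 4 libraries (0.0555 to 0.107). TFAP4 was not called without vector replicate 1 or without replicate 1 or 2 labelled nPD-L1 (0.0584 to 0.0775), or on 4 libraries (0.298 to 0.350). The list held 0 calls without vector replicate 1 or replicate 1 labelled nPD-L1 and 4 without vector replicate 3.

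Of 19 genes that control MYC protein stability, all tested, 1 was called (5.26%, against 4.96% of all genes tested), and the median log2 fold change was −0.04. This was PIM1, a kinase that stabilizes MYC, which rose from 587 ± 22.8 to 1062 ± 90.3 scaled reads (SD, n = 3; log2 fold change 0.85, SE 0.11, limma adjusted p = 0.000785). PIM1 was called in all 19 alternative fits at an adjusted p under 0.05, but its fold change falls short of the log2 threshold of 1 applied as a further alternative.

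Genes that MYC is known to activate were described in 2 lists, which were chosen with earlier results of these data known. Of 27 ribosome biogenesis genes, all tested, 22 had a log2 fold change below 0, against 53.3% of all genes tested, with a median of −0.15 (−0.20 to −0.11 with a library left out). None of the 22 passed the adjusted test in the main limma fit. Of these, 5 had an unadjusted p under 0.05, where 4.71% of all genes tested were lower. The 2 genes called (7.41%, against 4.96% of all genes tested) were both higher in nPD-L1-labelled libraries. RCL1, a pre-rRNA processing protein, rose from 1120.2 ± 19.9 to 1732 ± 44.2 scaled reads (log2 fold change 0.63, SE 0.09, limma adjusted p = 0.00192), and UBTF, the RNA polymerase I factor UBF, from 2281 ± 136 to 3049 ± 247 (0.42, SE 0.10, limma adjusted p = 0.0407). RCL1 was called in all 6 fits that left out a library but not on 4 libraries (adjusted p 0.0520 to 0.105). UBTF was called in 1 of those 6 fits, the one without vector replicate 2, and not after removal of the gene length trend (limma adjusted p = 0.124). Without replicate 1 labelled nPD-L1 the list also held 2 calls, and the gene called there beside RCL1 was not UBTF.

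Of 38 genes of metabolism and growth that MYC activates, 37 were tested. 27 had a log2 fold change below 0, the median was −0.09, and limma called 0, against 4.96% of all genes tested. At an unadjusted p under 0.05 there were 3, 1 higher and 2 lower, against 14.2% of all genes tested. edgeR and DESeq2 on 4 libraries also called 0. The E-box CACGTG occurred for 9 of 20 ribosome genes with a promoter window (45.0%) and for 15 of 33 metabolism genes (45.5%). The 8.77% given above is the share of all genes with a window, tested here or not. In the other gene lists described here the share ranged from 11.8% to 25.0%. The ribosome and metabolism lists were chosen as known MYC targets, so their shares are not independent evidence.

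Genes that were listed here as repressed by MYC, from textbook knowledge, moved in both directions. Whether MYC represses each of them in these cells was not tested. Of 19 in the table, 16 were tested, and 3 rose and 4 fell (43.8%, against 4.96% of all genes tested), with a median log2 fold change of 0.04. This list was chosen with earlier results of these data known, so its share is not independent evidence. The stress gene GADD45B rose from 593 ± 93.1 to 2338 ± 133 scaled reads (SD, n = 3; log2 fold change 1.99, SE 0.13), and the cell cycle inhibitor CDKN1A (1.22) and NDRG1 (0.87) were also higher. The lowest were CDKN1B, which encodes the inhibitor p27 and went from 1280.4 ± 77.4 to 655 ± 146 scaled reads (−0.99, SE 0.15), KLF6 (−0.92) and GADD45A (−0.83). The largest adjusted p of these 6 was 0.00255 (CDKN1B, by limma), and all 6 were called in every fit that left out a library, while GADD45A and NDRG1 were not called by limma on 4 libraries (adjusted p 0.0507 and 0.0508).

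Of the targets of MLX with MLXIP or MLXIPL, 17 were in the table and 10 were tested. 8 of the 10 had a log2 fold change above 0, with a median of 0.42, while 53.3% of all genes tested were below 0. By the adjusted test 1 of the 10 rose, against 4.04% of all genes tested. At an unadjusted p under 0.05, 4 were higher and 0 lower, against 9.53% and 4.71% of all genes tested. This list, too, was chosen with earlier results of these data known, so these counts are not independent evidence. TXNIP and ARRDC4, the classical MLXIP targets, did not exceed 5.05 and 2.26 scaled reads in any library and were not tested. KLF10 rose from 1161 ± 289 to 2080.5 ± 64.4 scaled reads (SD, n = 3; log2 fold change 0.87, SE 0.16, limma adjusted p = 0.0077), but was not called without replicate 1 or 3 labelled nPD-L1 (0.0638 and 0.0509) nor in limma or edgeR on 4 libraries (0.0834 and 0.0926). The lipogenic targets FASN and SCD, named after their values were seen, varied widely within groups and did not pass the test. FASN had 12462, 25755 and 9312 scaled reads with vector and 14964, 35805 and 26094 in nPD-L1-labelled libraries, and replicate 2 was the highest in both groups. ACLY, a lipogenic target also named after its values were seen, varied less. It had 8354, 8706 and 8582 scaled reads with vector and 10473, 11958 and 11226 in nPD-L1-labelled libraries, without overlap. Its log2 fold change was 0.39 (SE 0.10, limma adjusted p = 0.05155), and it was not called in the main fit. The list held 2 calls in several alternative fits given below, so a gene other than KLF10 was called in those. Without replicate 1 labelled nPD-L1 the list held 1 call, which was not KLF10.

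**Figure D4:**
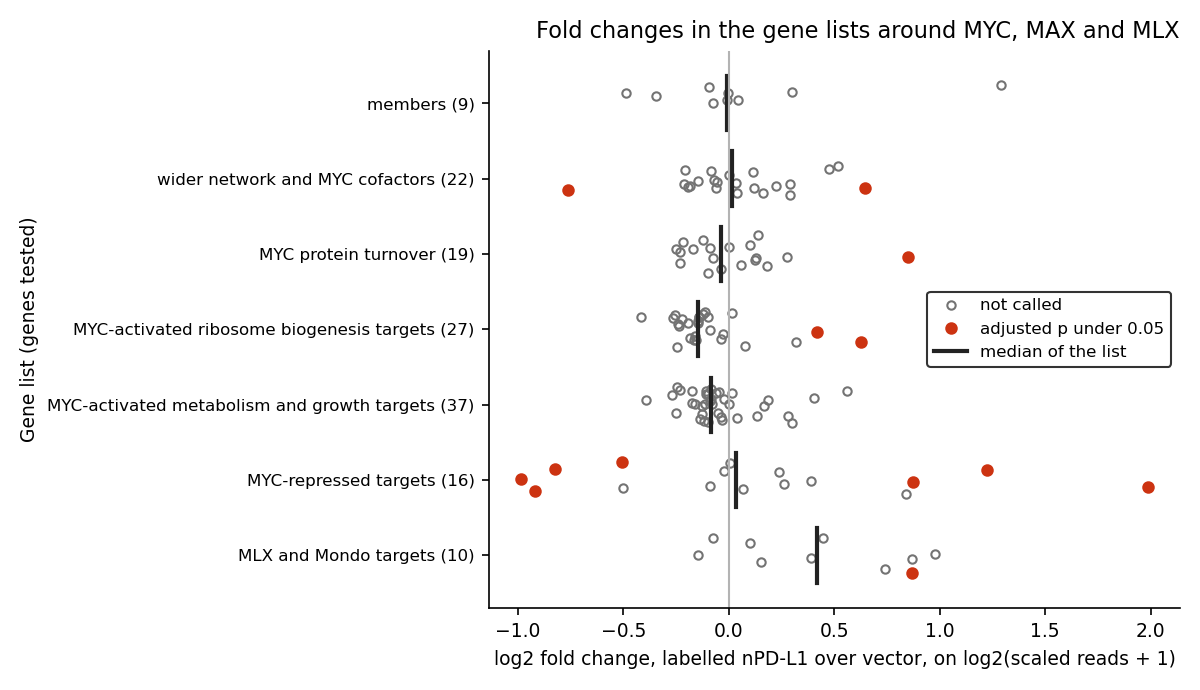
Log2 fold changes (labelled nPD-L1 over vector, on log2(scaled reads + 1)) of the tested genes in each list, with filled red points at an adjusted p under 0.05 from limma, open grey points otherwise, and a black bar at the list median. The 9 members hold no red point, the ribosome and metabolism lists lie mostly left of 0, and the MYC-repressed list has 3 red points to the right of 0 and 4 to the left.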

How the data were processed

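RNA of 6 libraries had been sequenced by a company. The submitters' processing notes name CASAVA, HISAT2 (version 2.0.5) and hg38, and the counter and annotation are not given in the sources used here. The authors' deposited values are a signal, reads per gene divided by a size factor per library, although the table is presented as raw counts. The authors also deposited group means, which equal the means of 3 libraries, and a log2 fold change, p-value and adjusted p-value of their own comparison, none of which was used. In each of the 6 libraries all low values (100%, tolerance 0.1 read) were whole multiples of the value of 1 read. Whole reads were recovered in 4 of them. In vector replicate 1 and replicate 2 labelled nPD-L1 that value lies so close to 1 that recovery was not accepted, so no count model was run on all 6.

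Tested were the 15076 genes that reached 10 scaled reads in 3 or more libraries. The test was limma (3.58.1, under R 4.3.3) on log2(value + 1) with trend and robust moderation and Benjamini-Hochberg adjustment over all of these genes, and calls were made at an adjusted p under 0.05. edgeR (4.0.16, quasi-likelihood, 264 higher and 61 lower genes) and DESeq2 (1.42.0) were run on the recovered reads of 4 libraries. Intervals are 95% and unadjusted. Named were all 10 members, CD274, of each of 6 lists the called genes (the 3 highest and 3 lowest where over 6 were called), MGA, MLXIP, MLXIPL, TXNIP and ARRDC4, and the 5 genes most like MYC. The members and lists were chosen with earlier results of these data known. Promoter windows are from RefSeq (GRCh38.p14), and were matched by symbol for 9 of 10 members. CDKN2B, PKLR and G6PC1 of the lists and AFP, GPC3, CD3E, CDH5 and COL3A1 of the markers were not analysed here. A further gene of the MYC-repressed list is not reported here and is left out of that list's counts and median. The kit in the labels, NEBNext Ultra, does not mark strand in its standard form.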

Additional observations from a re-analysis of the deposited data

How the results depend on the processing

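The members called stayed at 0 higher and 0 lower under upper-quartile or trimmed-mean factors, a pseudocount of 0.1, non-robust moderation, protein-coding genes only, the gene length trend, a fold threshold, and limma, edgeR or DESeq2 on 4 libraries. MYCL was the 1 member called higher with no filter on low values, with at least 10 in all libraries, with a pseudocount of 10, and without vector replicate 2 (range of 0 to 1 higher and 0 lower with a library left out). The labels do not say whether replicate numbers pair the libraries. The r of the deviations was −0.01, 0.23 and 0.13 for numbers 1, 2 and 3, and −0.22 to 0.08 between unlike numbers. These values do not settle whether the libraries are paired. With the replicate number as a block, 1 member was higher (MYCL, limma adjusted p = 0.0214) and 1 lower (MXD3, 0.0418), among 927 higher and 258 lower genes, and 4 cofactors, 1 metabolism gene and 3 MLX targets were called. By point estimate, MYC turned to 0.0027 and MAX to 0.0076 with trimmed-mean factors, and MYC to 0.083, 0.092 and 0.086 in limma, edgeR and DESeq2 on 4 libraries, where MXD4 was −0.13, −0.19 and −0.20. With the length trend removed, MXD4 was −0.040 and MGA −0.038. With a library left out, MYC ran from −0.081 to 0.053, MAX from −0.073 to 0.081, MXD4 from −0.17 to 0.30, MXI1 from −0.17 to 1.5e-05, MLX from −0.13 to 0.019 and MGA from −0.045 to 0.24. None of these values was called.

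Over all genes, 609 higher and 139 lower became 254 and 53 (limma on 4 libraries), 264 and 61 (edgeR), 329 and 85 (DESeq2), 306 and 68 with a log2 fold change of at least 1, 1436 and 710 at an unadjusted p, and, chosen after seeing the data, 926 higher and 281 lower in limma, 288 lower in edgeR and 217 lower in DESeq2 at an unadjusted p on 4 libraries. Leaving out a library gave 350 to 793 higher and 77 to 244 lower, with 350 to 407 higher and 77 to 86 lower without vector replicate 1 or any nPD-L1-labelled library, and 793 and 244 without vector replicate 2. The cofactor list had 2 calls, 1 with the length trend removed, 0 on 4 libraries in each tool or with the fold threshold, 4 at an unadjusted p (also on 4 libraries) and 0 to 4 with a library left out. The turnover list had 1, 0 with the fold threshold, 2 at an unadjusted p and 1 to 2 with a library left out (2 without vector replicate 2). The ribosome list had 2, 1 with the length trend removed, 0 on 4 libraries or with the fold threshold, 7 at an unadjusted p and 1 to 2 with a library left out (2 without vector replicate 2 or nPD-L1 replicate 1, otherwise 1). The metabolism list had 0, 1 with no filter, 3 at an unadjusted p, 1 in DESeq2 at an unadjusted p on 4 libraries and 0 to 1 with a library left out (1 without vector replicate 2). The repressed list had 7, 4 in limma on 4 libraries, 2 with the fold threshold and 6 to 9 with a library left out. The MLX target list had 1, 2 with trimmed-mean factors, no filter, non-robust moderation or protein-coding genes only, 0 in limma or edgeR on 4 libraries or with the fold threshold, 4 at an unadjusted p and 0 to 2 with a library left out (0 without nPD-L1 replicate 3, 2 without vector replicate 2). The cause of these moves was not tested, beyond the fewer libraries or other thresholds that define each setting. MYCN was too low to test, and MYCL had at most 58.7 scaled reads in any library.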
